A study of Mus musculus with 12 samples.

Results

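The genes described here are 35 genes of blood and lymphatic vessel endothelium and of angiogenesis, 35 of the 18195 genes measured. They were chosen by name as endothelial markers, receptors and transcription factors together with the angiogenic ligand Vegfa, and all 35 were found on the array, on 67 of its 45101 probe sets. The RNA was from frozen abdominal fat pads of female mice of the C57BL/6 strain that were wild type or p47phox null (labelled P47KO) and ate casein or a high fat diet from postnatal day 28 for 13 weeks. Both genotypes received both diets, which makes 4 groups, and each group had 3 pools of fat pads with 1 Affymetrix array for each pool. How many animals made up a pool, how the null allele was made and what the high fat diet contained were not given, so p-values measure the spread between pools. A whole fat pad holds adipocytes, vessels and blood cells together, and in such samples fewer cells of a type and less RNA per cell cannot be told apart.

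Endothelial cells line every vessel and, in fat, carry nutrients and hormones to adipocytes and fatty acids away from them. Vascular endothelial growth factor A, made by adipocytes and other cells, acts through the receptor tyrosine kinases Kdr and Flt1, and angiopoietins act through Tek, with Tie1 beside it. Transcription factors of the ETS and SOX families, among them Erg, Ets1, Sox7, Sox17 and Sox18, establish the endothelial programme, and growth of fat mass is known to be accompanied by growth of its capillaries. The protein missing in the null mice, p47phox, is the product of Ncf1, a cytosolic organizer of the NADPH oxidase, the enzyme complex with which phagocytes make superoxide and which endothelial cells also contain.

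The deposited values are log2 values centred on the median of the 12 pools for each probe set, so they give differences between pools and not levels. For that reason it could not be read from them whether an endothelial marker was present or absent in a pool. Ncf1 stood at 0.07 to 0.85 in the 6 wild type pools and at -0.29 to -0.19 in the 6 null pools, with no overlap. Markers of other tissues also differed among pools. The median of 23 skeletal muscle markers reached 4.58 in wild type high fat diet pool 2 and 3.60 in null high fat diet pool 1, and that of 21 liver markers reached 4.41 in wild type casein pool 3. Markers of ovary, oviduct and uterus (23 genes) had medians of -0.96 to -0.75 in wild type pools of the high fat diet and of 0.13 to 0.88 in null pools of that diet, and so separated the genotypes there.

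Most of the 35 genes moved together across the pools. For 25 of them the correlation over the 12 pools with the median of the other 34 genes was above 0.6, led by Egfl7, an endothelial secreted factor, at 0.97, Esam, an adhesion molecule of endothelial tight junctions, at 0.96 and Mmrn2, an endothelial matrix glycoprotein, at 0.95. Those points share their arrays and their normalization and are given as a description. The correlation was below 0 for 4 genes. These were Clec14a, a C-type lectin of endothelium, at -0.10, Sox17, a factor of arterial endothelium, at -0.18, Prox1, the master factor of lymphatic endothelium, at -0.29, and Flt4, the receptor for the lymphatic growth factor Vegfc, at -0.60. The probe sets of Flt4 correlated with the mean of that gene at 0.94 and at 0.10. Prox1 was highest, at 0.68, in wild type casein pool 3, the pool with the liver marker median of 4.41. A pair of neighbouring genes on chromosome 11, Pecam1 and Icam2, correlated at 0.78, and a pair on chromosome 9, Esam and Robo4, at 0.84; members of each pair lie within 1 Mb of each other in the RefSeq assembly GRCm38.p6. The common movement was not particular to vessel genes. The median of the 35 genes correlated over the 12 pools with that of adipocyte markers at 0.86 and of macrophage markers at 0.74. It correlated with mesothelial markers at -0.81, proliferation genes at -0.77 and ovary, oviduct and uterus markers at -0.76, and with skeletal muscle markers at 0.04. Wild type high fat diet pool 3 held the highest of the 12 values for 19 of the 35 genes (54.3%, against 13.3% of all genes), and null high fat diet pool 3 held the lowest for 14 (40% against 17.2%).

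**Figure D1:**
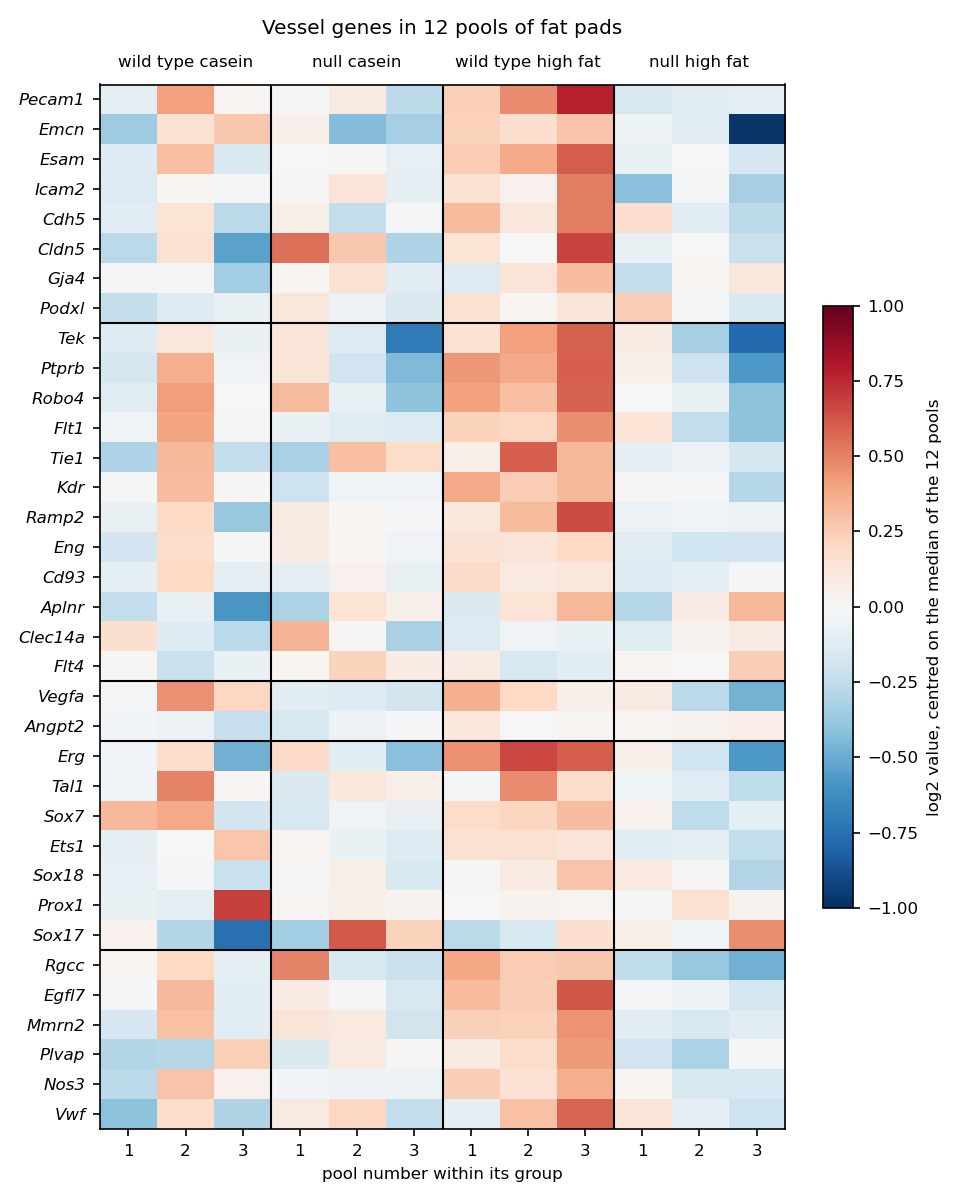
Log2 values of the 35 vessel genes (rows, grouped by role, with lines between adhesion and junction proteins, receptors, ligands, transcription factors and other proteins) in the 12 pools (columns), centred on the median of the 12 pools. Wild type high fat diet pool 3 is the highest pool for 19 of the 35 genes, and Flt4, Prox1, Sox17 and Clec14a depart from the common pattern.

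The first comparison set null against wild type pools from mice on the high fat diet, and asks how fat without p47phox differs when both genotypes receive that diet. Erg, Rgcc, Pecam1 and Esam fell in the null pools, by 0.82 to 0.49 on the log2 scale, or 1.76-fold to 1.40-fold. In limma with Benjamini-Hochberg adjustment over all genes these 4 of 35 genes (11.4%) passed as lower, where 2.71% of all genes did, and 0 passed as higher, where 3.21% of all genes did. The difference was negative for 30 of the 35 genes (85.7%, against 56.6% of all genes) and had a median of -0.38, where the median of all genes was -0.03. At an unadjusted p under 0.05, 22 of the 35 were lower (62.9%, against 12.7%) and 0 higher (against 12.3%). All 3 null pools lay below all 3 wild type pools for 23 of the 35 genes (65.7%, against 17.3%), and for 0 genes did they lie above (against 14.9%). Of the 67 probe sets 58 were lower in the null pools. When probe sets were tested singly in limma, with adjustment over 34958 of them, those of Rgcc, Pecam1 and Esam did not pass. Their adjusted p were 0.0644 and 0.0965 for Rgcc, 0.0529 for Pecam1 and 0.0562 for Esam. A probe set of Erg (0.0247) and a probe set of Ptprb (0.032) passed, but not the others of those genes.

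**Figure D2:**
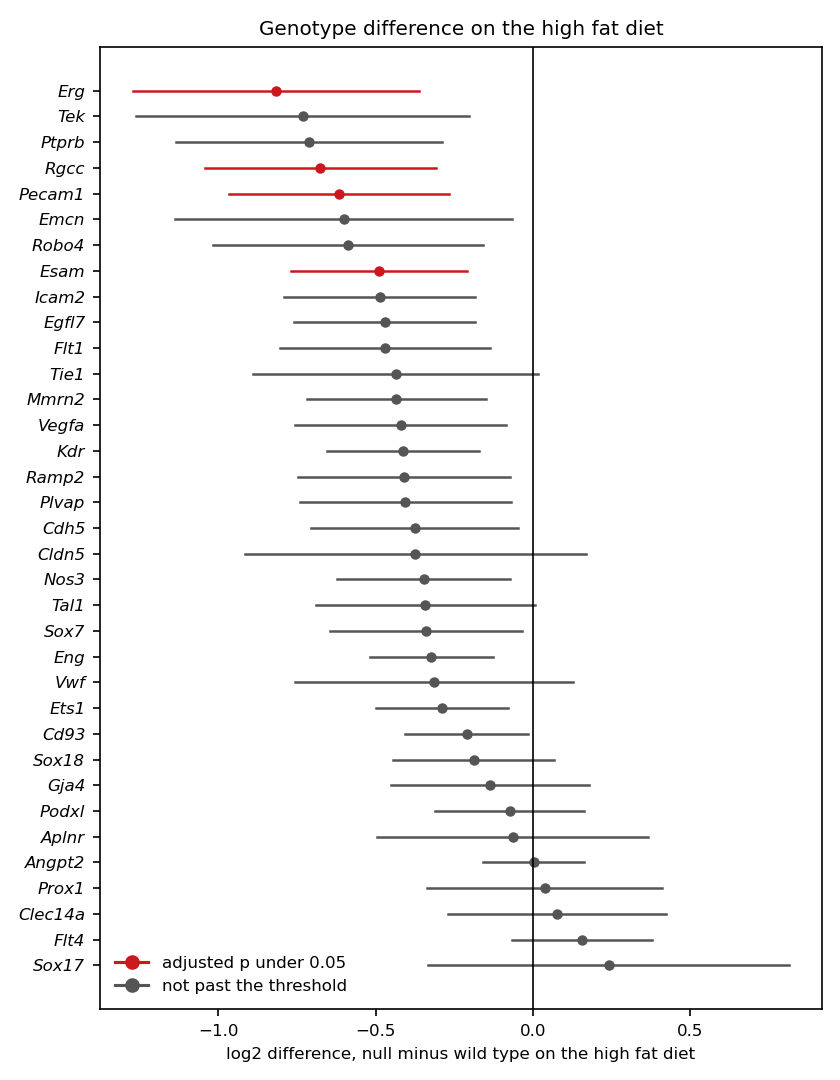
Difference between p47phox null and wild type pools on the high fat diet for the 35 vessel genes (log2 scale, n = 3 pools a group), with 95% confidence intervals of the limma fit as lines. The 4 genes drawn in red, Erg, Rgcc, Pecam1 and Esam, passed an adjusted p of 0.05, and 30 of the 35 points lie below 0.

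Among the adhesion and junction proteins all 8 differences were negative, and those of Pecam1 and Esam passed. Pecam1, which encodes the platelet and endothelial cell adhesion molecule at endothelial junctions, was at 0.24, 0.48 and 0.77 in pools 1, 2 and 3 of the wild type and at -0.16, -0.11 and -0.09 in the null pools. The groups did not overlap, and the spread lay almost wholly in the wild type pools. Pecam1 fell by 0.62 ± 0.16 (standard error; 3 pools in each group), with an adjusted p of 0.0476 in limma. Esam was at 0.25, 0.38 and 0.61 in the wild type and at -0.06, 0.01 and -0.17 in the null pools, again without overlap, and fell by 0.49 ± 0.13 (adjusted p = 0.0491). Cdh5, the cadherin of endothelial adherens junctions, was at 0.32, 0.11 and 0.51 in the wild type and at 0.17, -0.10 and -0.26 in the null pools. Here null pool 1 stood above wild type pool 2, and the difference of -0.38 ± 0.15 did not pass (adjusted p = 0.147). The probe sets of Cdh5 stood at -0.23 and -0.52. The differences of the other 5 genes ran from -0.60 for Emcn, a sialomucin of veins and capillaries, to -0.07 for Podxl, a sialomucin of the luminal surface. Between them lay Icam2, an adhesion molecule for leukocytes, at -0.49 (adjusted p = 0.0603), Cldn5, the claudin of endothelial tight junctions, at -0.37 and Gja4, a connexin of arterial endothelium, at -0.14. Emcn was at -0.97 in null pool 3 and at -0.05 and -0.11 in the others.

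Of the 12 receptors and receptor-associated proteins 10 had a negative difference and 0 passed, although the pools of 9 did not overlap. Kdr, the main signalling receptor for Vegfa, was at 0.38, 0.26 and 0.32 in the wild type and at 0.01, -0.01 and -0.29 in the null pools. Every null pool was below every wild type pool, and the difference of -0.41 ± 0.11 just missed the threshold (adjusted p = 0.0516). The 4 probe sets of Flt1, the high-affinity and decoy receptor for Vegfa, stood at -0.61 to -0.33, with a gene difference of -0.47 (adjusted p = 0.086). The angiopoietin receptor Tek stood at -0.73 (adjusted p = 0.0906), its partner Tie1 at -0.44 (adjusted p = 0.217) and Ptprb, the vascular endothelial phosphatase that acts on Tek, at -0.71 (adjusted p = 0.0543). Tek and Ptprb were lowest in null pool 3, at -0.78 and -0.58, and near 0 in null pool 1, at 0.07 and 0.05. Eng, a co-receptor for the TGF-beta family, stood at -0.32 (adjusted p = 0.0562), Robo4, an endothelial guidance receptor, at -0.59, Ramp2, the partner that makes the adrenomedullin receptor, at -0.41 and Cd93, a lectin-like receptor, at -0.21. Of the remaining receptors Aplnr, the receptor for apelin, stood at -0.06, Clec14a at 0.08 and Flt4 at 0.16, and their 95% intervals ran from -0.50 to 0.37, from -0.27 to 0.42 and from -0.07 to 0.38.

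Of the ligands, Vegfa was at 0.36, 0.20 and 0.05 in the wild type and at 0.08, -0.27 and -0.47 in the null pools. Null pool 1 lay above wild type pool 3, and the difference of -0.42 ± 0.15 did not pass (adjusted p = 0.119). Angpt2, the angiopoietin that destabilizes vessels, was at 0.11, -0.01 and 0.02 in the wild type and at 0.03, 0.03 and 0.07 in the null pools. Its difference was 0.00 ± 0.07, with a 95% interval from -0.16 to 0.16.

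Among the 7 transcription factors the difference was negative for 5, and Erg passed. Erg, the ETS factor that maintains endothelial identity, was at 0.45, 0.67 and 0.61 in the wild type and at 0.05, -0.20 and -0.57 in the null pools. It fell by 0.82 ± 0.21 (adjusted p = 0.0463), the largest difference of the 35 genes, and its probe sets stood at -0.83 and -0.80. Ets1, another ETS factor, differed by -0.29 (adjusted p = 0.0916), Sox7 by -0.34, Tal1, a factor of blood and endothelial precursors, by -0.34 and Sox18 by -0.19. Sox17 stood at 0.24, with a 95% interval from -0.33 to 0.81. Prox1 was at 0.00, 0.03 and 0.03 in the wild type and at -0.02, 0.15 and 0.04 in the null pools, and differed by 0.04 ± 0.17; its 3 probe sets disagreed, at 0.31, 0.03 and -0.23. Prox1, Angpt2, Aplnr and Clec14a were the 4 genes whose probe sets differed in sign in this comparison on the high fat diet.

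Among the 6 secreted, matrix and intracellular proteins all differences were negative, and Rgcc passed. Rgcc, a cell cycle regulator induced by complement that is abundant in capillary endothelium of fat, was at 0.39, 0.25 and 0.27 in the wild type and at -0.25, -0.38 and -0.48 in the null pools. The groups did not overlap, and Rgcc fell by 0.68 ± 0.17 (adjusted p = 0.0431); its probe sets stood at -0.83 and -0.53. Plvap, the diaphragm protein of fenestrated capillaries, was at 0.09, 0.18 and 0.43 in the wild type and at -0.19, -0.32 and -0.02 in the null pools, with no overlap and a difference of -0.41 ± 0.15 that did not pass (adjusted p = 0.13). Nos3, the endothelial nitric oxide synthase, was at 0.25, 0.14 and 0.37 in the wild type and at 0.03, -0.16 and -0.15 in the null pools, a difference of -0.35 ± 0.12 (adjusted p = 0.116). Those pools did not overlap either. Egfl7 stood at -0.47 (adjusted p = 0.0584) with its 4 probe sets at -0.50 to -0.40, Mmrn2 at -0.43 (adjusted p = 0.0697) and Vwf, the clotting factor stored in endothelial granules, at -0.32 (adjusted p = 0.368).

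Since Erg is itself a factor that binds ETS sites, promoters from the RefSeq table (build GRCm38.p6; 250 bases before to 50 after each start) were read for the genes that passed in any comparison. The table held 24 promoters of 17 of the 35 genes, among them Erg, Rgcc and Kdr. It held none for Pecam1 and Esam, which had also passed. Each is shown 5′ to 3′ along its gene, with matches to the ETS motifs AGGAAG or CCGGAA on either strand in capitals. The promoter of Rgcc lies at chr14:79301586-79301885 on the minus strand, that of Kdr at chr5:75978406-75978705 on the minus strand, and the 1 of 3 Erg promoters with a match at chr16:95459299-95459598 on the minus strand.
Rgcc: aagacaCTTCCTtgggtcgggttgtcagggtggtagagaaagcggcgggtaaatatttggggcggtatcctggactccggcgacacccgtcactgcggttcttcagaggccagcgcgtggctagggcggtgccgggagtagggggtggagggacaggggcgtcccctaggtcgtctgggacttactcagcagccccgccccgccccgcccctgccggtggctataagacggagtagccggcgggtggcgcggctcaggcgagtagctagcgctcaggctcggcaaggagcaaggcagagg
Kdr: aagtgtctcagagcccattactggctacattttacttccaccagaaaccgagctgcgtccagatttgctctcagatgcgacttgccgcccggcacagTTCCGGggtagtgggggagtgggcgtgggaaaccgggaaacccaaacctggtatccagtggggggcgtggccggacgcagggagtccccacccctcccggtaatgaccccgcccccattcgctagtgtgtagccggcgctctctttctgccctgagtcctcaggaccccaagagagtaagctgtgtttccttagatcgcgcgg
Erg: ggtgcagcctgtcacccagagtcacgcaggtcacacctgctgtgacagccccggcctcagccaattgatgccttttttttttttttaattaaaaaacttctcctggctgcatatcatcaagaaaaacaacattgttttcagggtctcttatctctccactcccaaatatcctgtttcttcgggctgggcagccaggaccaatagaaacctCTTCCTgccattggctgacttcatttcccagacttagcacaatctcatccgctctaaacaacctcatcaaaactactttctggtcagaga
Rgcc and Erg each hold 1 match to AGGAAG, read on the opposite strand, and Kdr holds 1 match to CCGGAA, also on the opposite strand. Of the 24 promoters 10 (41.67%) hold a match to either motif, where 45.2% of the 32851 promoters of the table do. A match to either motif was thus no more frequent among these 24 promoters. Taken singly, AGGAAG was found in 9 (37.5%, against 35.35%) and CCGGAA in 1 (4.17%, against 14.9%). A match to the SOX motif ACAAT was found in 6 of the 24 promoters (25% against 31.02%), to the GATA motif AGATAA in 4 (16.67% against 11.18%) and to the hypoxia motif ACGTG in 2 (8.33% against 19.62%), the last being 1 promoter each of Vegfa and Clec14a. These short motifs were counted on both strands with overlaps allowed.

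The calls on the high fat diet rested on nearly every pool of that diet. The number of genes past the threshold was 0 when any 1 of the 3 wild type pools of that diet was left out, and also when null pool 2 or 3 of that diet, or pool 2 of the null casein group, was left out. Leaving out null casein pool 3 gave 2 genes. It was 7 without null high fat diet pool 1, and 8 and 9 without wild type casein pools 1 and 2. Leaving out 1 pool in turn gave adjusted p from 0.0314 to 0.172 for Erg, from 0.0168 to 0.159 for Rgcc, from 0.0315 to 0.147 for Pecam1 and from 0.0221 to 0.174 for Esam. Their differences kept their sign each time, at -0.96 to -0.65 for Erg, -0.73 to -0.62 for Rgcc, -0.75 to -0.48 for Pecam1 and -0.57 to -0.39 for Esam. The median of the 35 genes ran from -0.44 to -0.30 over the same fits. Without wild type casein pool 3, wild type high fat diet pool 2 and null high fat diet pool 1 together, the pools with the most liver or muscle RNA, 0 genes passed and the median was -0.43.

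**Figure D3:**
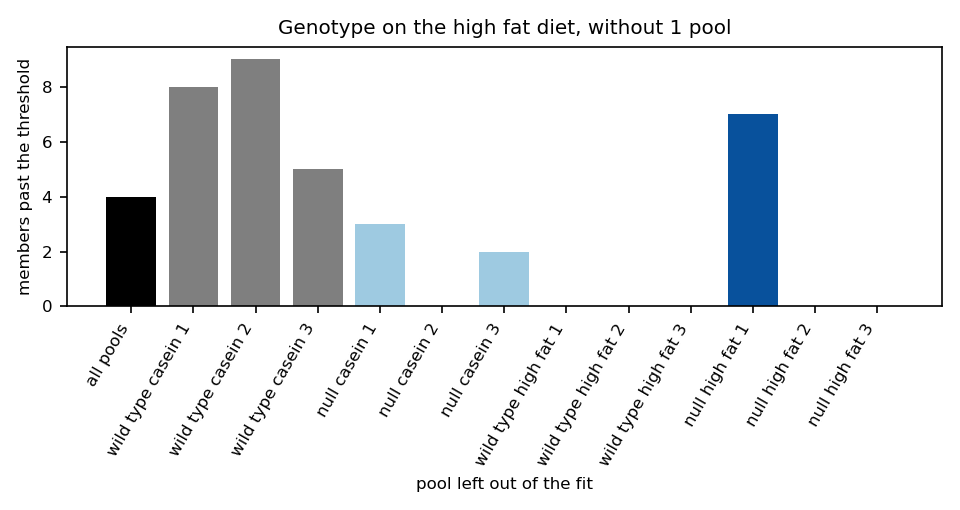
Number of the 35 vessel genes past an adjusted p of 0.05 between null and wild type pools of the high fat diet, with all 12 pools (black) and with each pool left out of the fit. The count is 4 with all pools, 0 without any 1 of 6 pools and at most 9.

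Other cells of the fat pad differed between the same pools. On the high fat diet 18 adipocyte markers had medians of 0.18 to 0.27 in wild type pools and of -0.54 to -0.04 in null pools, and 6 of the 18 fell while 0 rose, among them Lep, Pparg, the regulator of adipocyte differentiation, and Aqp7 and Dgat2, which handle glycerol and triglyceride, by 1.64, 0.78, 1.17 and 0.70. Of 23 ovary, oviduct and uterus markers 10 rose and 0 fell, with a median difference of 1.53, of 15 mesothelial markers Wt1 and Clu rose, and of 22 proliferation genes 7 rose, among them Cdc20 and Top2a by 1.19 and 0.58. With the ovary, oviduct and uterus median as a covariate 0 of the 35 vessel genes and 0 of all genes passed, and the median of the vessel genes was -0.13. With the adipocyte median as a covariate those counts were also 0, the vessel median was -0.10, and Erg stood at -0.08, Rgcc at -0.20, Pecam1 at -0.37 and Esam at -0.19. Since both medians separate the genotypes on this diet, their part in these differences cannot be told apart from that of the genotype. Macrophage markers (19 genes, median difference -0.32), lymphocyte markers (21 genes, -0.15), adrenal markers (11 genes, -0.01), erythroid genes (6 genes, -0.10), liver markers (21 genes, -0.20) and skeletal muscle markers (23 genes, -0.47) gave 0 or 1 gene past the threshold each, Ighm and Slc4a1, both lower. On these lists of other cells, too, each direction was read against 2.71% of all genes lower and 3.21% higher.

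**Figure D4:**
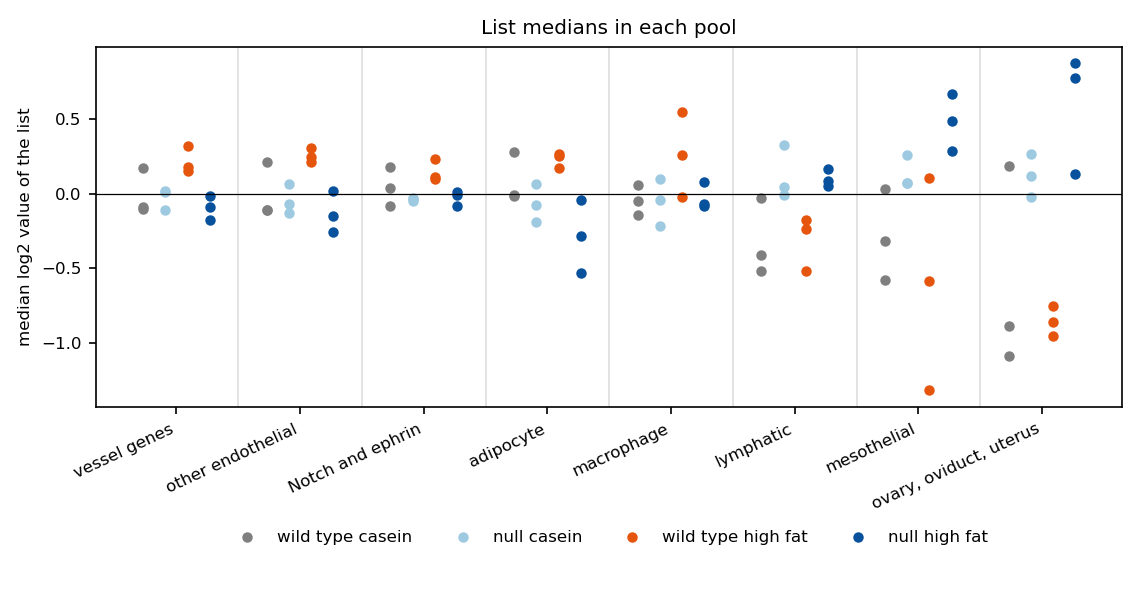
Median log2 value of 8 gene lists in each of the 12 pools, one point a pool, coloured by group. On the high fat diet the wild type pools (orange) lie above the null pools (dark blue) for the vessel genes and the adipocyte list, and below them for the ovary, oviduct and uterus list.

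Further genes of the vessel wall were read on the same comparison from lists that hold none of the 35 genes. Of 35 other endothelial genes 3 fell (8.57%, against 2.71% of all genes) and 0 rose (against 3.21%), with a median of -0.47. Cav1, the caveolin abundant in endothelium and adipocytes, fell by 0.65 (adjusted p = 0.0263), Arhgef15, an endothelial exchange factor, by 0.60 and Rasip1, needed for vessel lumens, by 0.58. All 3 null pools lay below all 3 wild type pools for 20 of these 35 genes (against 17.3% of all genes) and above them for 2 (against 14.9%). Among 12 Notch and ephrin genes Notch1 fell by 0.41 (adjusted p = 0.0292) and Hey2, a Notch target, rose by 0.95 (adjusted p = 0.0363), while Dll4, the Notch ligand of sprouting tips, stood at -0.60 (adjusted p = 0.0512); the list median was -0.26. Of 16 further ligands and co-receptors Pdgfb, by which endothelium recruits pericytes, fell by 0.50 (adjusted p = 0.025), and the median was -0.16. The lymphatic list had a median of 0.53, with 4 of its 6 measured genes positive. The other 2, Lyve1 and Thy1, were negative, the lowest at -0.27. Of the positive genes Pdpn, found on lymphatic endothelium and also on mesothelium, rose by 0.99 (adjusted p = 0.0415). Fgl2, at 1.52 (adjusted p = 0.06), Mmrn1, a lymphatic matrix protein, at 0.71 (adjusted p = 0.123), and Reln, at 0.36, did not pass. The 14 mural cell genes divided: Ndufa4l2, a pericyte gene, fell by 0.42 and Rgs5, another, stood at -0.72 (adjusted p = 0.0521), while Mylk, a kinase of smooth muscle contraction, rose by 1.03 and Tagln, a smooth muscle cytoskeletal protein, stood at 1.95 (adjusted p = 0.0615), with a list median of 0.00. Of 18 hypoxia response genes Ldha, lactate dehydrogenase, fell by 0.36, and the median was -0.18. That list was divided, with 13 negative and 5 positive differences, the highest at 0.61. Car9 stood at 0.49 (adjusted p = 0.073), with the null pools all above the wild type pools. A call of 1 gene made up 8.33% of the Notch and ephrin list and 7.14% of the mural list in each direction. It made up 6.25% of the ligands and 5.56% of the hypoxia genes as lower, and 16.7% of the lymphatic genes as higher. All genes gave 2.71% lower and 3.21% higher, and 1 call in so short a list is not read as a result about the list.

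The effect of the diet was read within each genotype, to ask whether vessel genes respond to the high fat diet. In wild type fat 33 of the 35 genes (94.3%, against 50.3% of all genes) stood higher on the high fat diet, with a median difference of 0.25, where that of all genes was 0.00. In limma 0 of the 35 passed, as did 0% of all genes in either direction, and the smallest adjusted p was 0.538. At an unadjusted p under 0.05, 9 of the 35 (25.7%) were higher, against 4.68% of all genes, and 0 were lower, against 2.93%. Erg had the largest difference, 0.69 ± 0.21 (95% interval from 0.24 to 1.15), with casein pools at -0.04, 0.17 and -0.48 below every high fat diet pool. The pools did not overlap for 8 of the 35 genes, all higher on the high fat diet (22.9%, against 7.07%), and 0 genes lay entirely lower (against 4.86%). Besides Erg these were Tek, Ptprb, Rgcc, Icam2, Sox18, Podxl and Angpt2. Esam stood at 0.41 ± 0.13, Ramp2 at 0.44 ± 0.15, Cdh5 at 0.40 ± 0.15 and Pecam1 at 0.38 ± 0.16, each with casein pool 2 as high as or above a high fat diet pool. In casein pool 2 Pecam1 was at 0.41, against -0.10 and 0.02 in the other casein pools, and the adipocyte median of that pool was 0.28, above the 0.18 to 0.27 of the wild type high fat diet pools. Vegfa did not share the direction, at -0.01 ± 0.15 with a 95% interval from -0.35 to 0.32, and Prox1 stood at -0.15, with casein pool 3 at 0.68 and the other casein pools at -0.07 and -0.10. That casein pool 3 is the pool with the liver marker median of 4.41. Whether its Prox1 value came from vessels or from other tissue was not tested. Macrophage markers differed by a median of 0.31 in the same comparison, with 0 of 19 past the threshold. The 14 mural cell genes had a median of 0.15, with 11 positive and 3 negative differences, from -0.75 to 0.43, and 0 passed. Among those with the smallest p in limma, Pdgfrb, the pericyte receptor for Pdgfb, and Abcc9 stood at 0.40 and 0.41 (adjusted p = 0.61 and 0.639). This comparison uses the same wild type high fat diet pools as the genotype comparison on that diet, so they are not independent.

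In null fat the diet difference was negative for 29 of the 35 genes (82.9%, against 50.1% of all genes), yet small, with a median of -0.06 and a range from -0.41 for Rgcc to 0.12 for Angpt2. In limma 0 of the 35 passed, as did 0% of all genes, and every adjusted p of the 35 was 0.9996. At an unadjusted p under 0.05 Rgcc was lower, 1 of 35 (2.86%, against 1.93% of all genes), and 0 were higher (against 2.07%). The pools did not overlap for Rgcc, Ramp2 and Eng, all lower on the high fat diet (8.57%, against 5.7%), and for Angpt2, which was higher (2.86%, against 4.89%). Rgcc was at 0.50, -0.16 and -0.22 in the null casein pools, and each lay above the 3 null high fat diet pools. Pecam1 was at -0.02, 0.09 and -0.26 in the null casein pools and differed by -0.06 (95% interval from -0.41 to 0.29). Kdr, at -0.20, -0.04 and -0.04 there, differed by 0.00 (95% interval from -0.24 to 0.24). The interval of Kdr still admits a change as large as its difference of 0.22 in wild type fat.

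**Figure D5:**
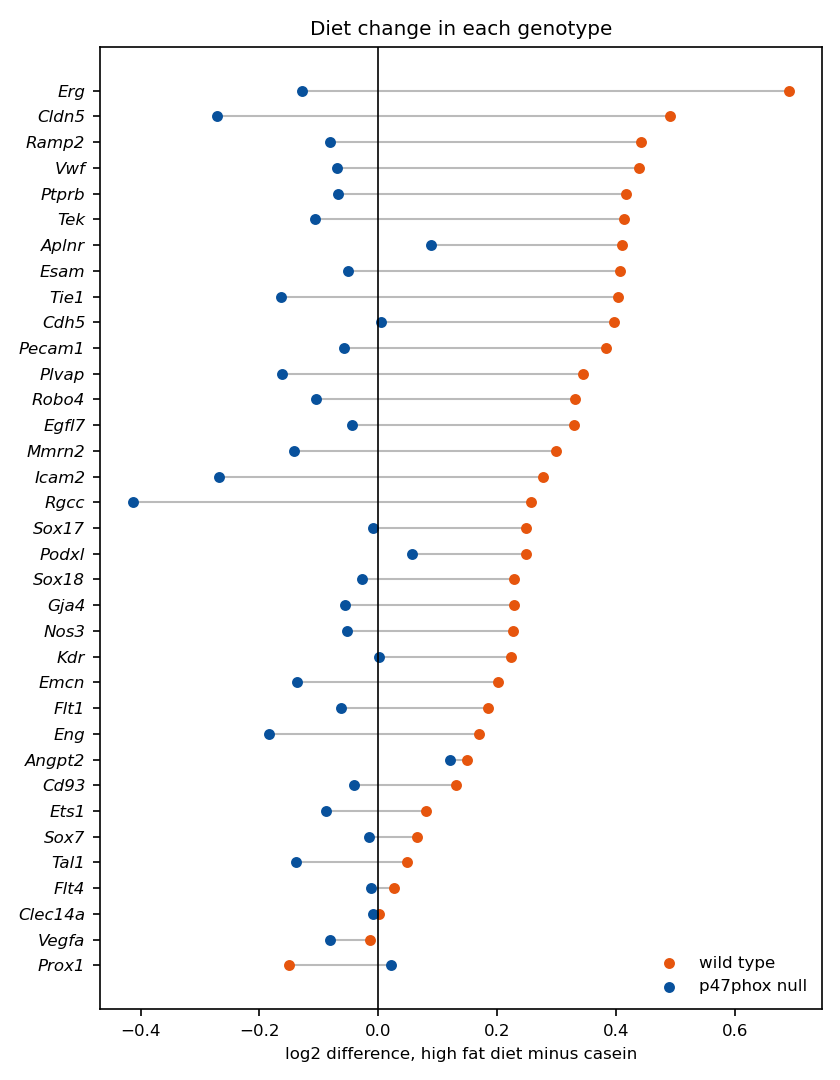
Difference between the high fat diet and casein (log2 scale, n = 3 pools a group) for the 35 vessel genes in wild type (orange) and p47phox null (blue) pools, ordered by the wild type value. In wild type fat 33 of the 35 points lie above 0, and in null fat 29 lie below 0.

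Whether the diet change differed between the genotypes was tested by the interaction, which is the diet change of the null genotype less that of the wild type. It was negative for 34 of the 35 genes (97.1%, against 51% of all genes), with a median of -0.34 against 0.00 for all genes. In limma 0 of the 35 passed, as did 0% of all genes, and the smallest adjusted p was 0.79. At an unadjusted p under 0.05, 8 of the 35 were lower (22.9%, against 3.41% of all genes) and 0 higher (against 2.7%). The largest interactions were those of Erg, at -0.82 ± 0.29, and Cldn5, at -0.76 ± 0.35. Vegfa, Angpt2 and Flt4 were close to 0, at -0.07, -0.03 and -0.04. The interaction contains the genotype difference on the high fat diet and the wild type diet difference, and repeats their pools.

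On casein the genotypes were compared to see what the null genotype shows without the high fat diet. Here the 35 genes had no common direction, with 17 negative (against 53.9% of all genes) and 18 positive differences (against 46.1%), a median of 0.00 and 0 past the threshold, as for 0% of all genes; at an unadjusted p under 0.05, 1 of 35 was lower (2.86%, against 4.5%) and 0 higher (against 3.62%). On casein Vegfa was at -0.02, 0.46 and 0.21 in the wild type and at -0.10, -0.13 and -0.18 in the null pools. The pools did not overlap, and the difference of -0.35 ± 0.15 did not pass (adjusted p = 0.599). For Kdr, wild type casein pools at -0.02, 0.31 and 0.01 stood above all 3 null pools, a difference of -0.19 ± 0.11 (adjusted p = 0.651). Flt1 stood at -0.22, also without overlap, and Flt4, at 0.19, was the 1 gene whose null pools were all higher. The probe sets of Flt4 were unlike on casein, at 0.04 and 0.35. In all 3 of 35 genes had null pools entirely below the wild type pools (8.57%, against 6.57%), and 1 entirely above (2.86%, against 5.4%). The widest positive differences were those of Sox17, at 0.50 ± 0.26, and Cldn5, at 0.39 ± 0.24, whose casein pools ran from -0.74 to 0.61 and from -0.53 to 0.55. Erg, Rgcc and Esam, which fell on the high fat diet, stood at 0.00 ± 0.21, -0.01 ± 0.17 and -0.03 ± 0.13, and Pecam1 at -0.18 ± 0.16. The probe sets of Erg disagreed on casein, at 0.16 and -0.15, as did those of Rgcc, at -0.26 and 0.25. For both genes the value near 0 is thus a mean of opposite signs. Nos3 was at -0.26, 0.29 and 0.05 in the wild type and at -0.03, -0.05 and -0.05 in null casein pools, and Plvap at -0.29, -0.28 and 0.24 and at -0.14, 0.09 and 0.02. Their groups overlapped, with differences of -0.07 and 0.10.

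Averaged over both diets, Kdr fell in the null pools by 0.30 ± 0.08 (adjusted p = 0.0422), 1 of 35 genes lower (2.86%, against 3.42% of all genes) and 0 higher (against 4.09%). A share of that size is at the background. Vegfa followed at -0.39 (adjusted p = 0.0533), Pecam1 at -0.40 (adjusted p = 0.0564) and Ptprb at -0.47 (adjusted p = 0.0603). At an unadjusted p under 0.05, 19 of 35 were lower (54.3%, against 13.5%) and 1, Flt4, higher (2.86%, against 12.1%). The median of the 35 genes was -0.20, with 27 negative differences (77.1%, against 57.1%), and for 0 of 35 genes did all 6 null pools lie below all 6 wild type pools (against 1.8%), or above them (against 1.27%). The call for Kdr ended without each of 10 of the 12 pools, at adjusted p up to 0.0902, and held without wild type casein pool 1 and null high fat diet pool 1. The number of genes past the threshold was 7, 5 and 3 without wild type casein pool 1, null high fat diet pool 1 and null casein pool 1, 1 without wild type casein pool 3 and 0 without any other pool.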

How the data were processed

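Total RNA (8 µg per array) of 12 pools was labelled with biotin, per the labels' protocols, of which the one on RNA speaks of rats where every other label says mouse. GCOS and RMA are named in the submitters' processing notes, with no version or setting, and the deposited values are taken as log2 values because RMA gives that scale. At a step that is not stated, these values had been centred: the median over the 12 pools departs from 0 by more than 1e-06 for 0 of 45101 probe sets. A filter on dim probe sets could therefore not be applied.

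The platform's annotation gave 1 gene for 34958 probe sets; 932 with several genes and 9211 with none were left out. Of the former, 34754 were renamed through RefSeq (GRCm38.p6). Probe sets of 1 gene were averaged, and 19 of the 35 members have more than 1; 2 further probe sets assigned to a member and another gene were not used.

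One fit of the 4 group means to the 12 pools was made with limma 3.58.1 in R 4.3.3 (8 residual and 2.5 prior degrees of freedom), with two-sided p-values adjusted over 18195 genes by Benjamini and Hochberg and a threshold of 0.05, and was tested on simulated data. Errors after ± are standard errors. The number of arrays limits the precision. The 6 comparisons were genotype on each diet and averaged, diet in each genotype, and the interaction. Values in every pool of the high fat diet are given for each gene past the threshold. They are also given for Pecam1, Cdh5, Kdr, Rgcc, Esam, Plvap, Nos3, Vegfa, Angpt2 and Prox1. Values in the casein pools are given for only some of these genes. From 16 further lists up to 4 genes each are named, those past the threshold first. Members, lists and alternatives were chosen with earlier results of these data known, and no list was tested as a set.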

Additional observations from a re-analysis of the deposited data

Results flagged for a closer look

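Rgcc stood out because the diet moved its pools in opposite ways in the genotypes: every wild type pool was higher on the high fat diet than on casein, and every null pool lower. The difference between those changes was -0.67 ± 0.23, and the interaction did not pass in limma (adjusted p = 0.79). Such a pattern was found for 1 of the 35 genes (2.86%) and for 96 of all 18195 genes (0.528%).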

How the results depend on the processing

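For the genotype comparison on the high fat diet, where 4 genes passed, the count was 0 with the probe set of the widest span in place of the mean of the probe sets, 1 after quantile normalization again, 21 with array weights, 0 without the 3 pools that stand apart, and 0 with each of 3 sets of covariates (the ovary, muscle and liver medians, the ovary median alone, the adipocyte median). Averaged over both diets, where 1 passed, it was 14 with array weights, 4 with genes of a span under the median left out and 0 with each set of covariates; in null fat it was 1 with array weights for the diet. The estimate of the array weights stopped before it converged and gave null high fat diet pool 2 a weight of 9.50, against 0.50 to 3.48 for the others. Leaving out 1 pool gave 0 to 9 genes on the high fat diet and 0 to 7 averaged over both diets. With the pool number as a block, 2 genes passed on the high fat diet (Erg and Rgcc, without Pecam1 and Esam) and 0 averaged over both diets, and no other count moved. Over all groups together no pairing by number was seen: deviations of same-numbered pools correlated at -0.61 to 0.59, above 0.1 for 3 of 18 pairs, and 4 of 12 pools correlated best with their own number. Those 3 pairs joined the diets within a genotype, at 0.55 for null pools 1, 0.59 for null pools 3 and 0.30 for wild type pools 3. The like pairs of null pools 2 and of wild type pools 1 and 2 stood at -0.01, -0.11 and -0.14. Pairing within a genotype was not tested. Why these counts moved was not tested, beyond the fewer pools or degrees of freedom that some settings leave. The median of the 35 genes kept its sign in 23 of 23 alternatives on the high fat diet (from -0.44 to -0.08), in 23 of 23 for the diet in wild type fat, in 21 of 23 for the diet in null fat and in 17 of 23 for the genotype on casein. For the 11 genes with values in every pool of the high fat diet, 1397 of 1490 values over all comparisons stayed on their side of the threshold. Of the rest 71 lost it and 22 gained it, and 0 called values changed sign. Most of the 1490 belong to results that had not passed with all pools. On the high fat diet the call was kept in 12 of 23 alternatives for Erg, 11 for Rgcc, 6 for Pecam1 and 7 for Esam. Averaged over both diets, Kdr kept its call in 7 of 22. Of the 22 gained values 10 came from the array weights. Centred values hide signal over background, so genes near background could not be told from others.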
